A study of Mus musculus with 10 samples.

Results

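Matrix metalloproteinases and the related ADAMTS enzymes cut the proteins outside cells, and the TIMP proteins block them. Every array feature whose gene symbol is Mmp, Adamts or Timp followed by a number was taken, with an a or b after the number allowed, which gave 80 of the 62976 features and 46 of the 20738 named genes. These were 23 Mmp genes with 38 features, 19 Adamts genes with 37 features and 4 Timp genes with 5 features.

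Total RNA of cultured mouse cells had been labelled with Cy3 and hybridised to 10 arrays, 1 sample on each. The series set induced embryonic Sertoli-like cells (ieSCs) against mouse embryonic fibroblasts (MEFs). Sertoli cells are the cells of the testis tubule wall that nurse developing sperm. Of the ieSC arrays, 4 came from cells made from female TTFs (tail tip fibroblasts) and 4 from cells made from MEFs, here called TTF-ieSCs and MEF-ieSCs, and 2 arrays held MEFs. All 3 groups were on a congenic background homozygous for R26-M2rtTA, the doxycycline-dependent activator, so the MEFs carried it too. Per the labels the ieSCs carried transgenes for Nr5a1, Wt1, Dmrt1, Gata4 and Sox9, and the MEFs carried none. All cells had spent 2 weeks in F12/DMEM without doxycycline, in 20% oxygen and 5% CO2. The labels number the ieSCs of each origin 1 and 2, called preparations here, and each preparation and the MEFs have 2 arrays, a and b. Whether a and b came from separate cultures is not stated, so p-values measure the spread between these arrays and preparations, part of which may be technical. No array of unconverted TTFs was analysed here, so the origin of the ieSCs and the kind of starting fibroblast cannot be told apart. A difference of TTF-ieSCs from MEFs therefore mixes conversion with the starting cell. For TTF-ieSCs, "rose" or "fell" means only higher or lower than MEFs.

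The MMPs are zinc proteases made as inactive precursors, and they are grouped by what they cut or by how they attach to the cell: collagenases cut fibrillar collagen, gelatinases cut denatured collagen and basement membrane, stromelysins have broad targets, and membrane-type MMPs work on the cell surface. ADAMTS enzymes are secreted zinc proteases, among them the aggrecanases, which cut proteoglycans, and the procollagen N-propeptidases, which trim new collagen. TIMPs bind the active site of MMPs, and Timp3 also blocks aggrecanases. In the testis, Sertoli cells sit on the basement membrane of the tubule and are a known source of MMPs and TIMPs.

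Values are log2 array levels as deposited, so a difference of 1 is a 2-fold change. Features lying above the 40th percentile of all values on 2 or more arrays were kept. That percentile, called the filter level below, was 4.988 to 5.023, and a difference that ends below it has an uncertain size. Of the 46 genes, 39 were kept (19 Mmp, 16 Adamts and all 4 Timp), and the kept feature with the highest mean stood for the gene. The other 7 were Adamts13, Adamts19, Adamts20, Mmp1a, Mmp20, Mmp21 and Mmp25. A member that was high in 1 group alone could pass this filter, so the 39 are not all members. Group differences are given ± standard error (SE) with p-values from limma adjusted by Benjamini-Hochberg over all 16650 genes tested, and "rose", "fell", "higher" or "lower" with an adjusted p under 0.05 is a call. Differences are always first minus second, that is ieSC minus MEF, TTF-ieSC minus MEF-ieSC, and preparation 2 minus 1. Both ieSC groups were compared with the same 2 MEF arrays.

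Arrays of the same name correlated at 0.9896 to 0.9966 over all features, arrays of the 2 preparations of an origin at 0.9878 to 0.9896, TTF-ieSCs with MEF-ieSCs at 0.9675 to 0.9754, and MEFs with ieSCs at 0.926 to 0.9408. Of 11 fibroblast markers, 8 were lower in MEF-ieSCs than in MEFs, and 9 were lower and 1 higher in TTF-ieSCs. Their summed intensity on the log2 scale was 20.30 to 20.32 in MEFs, 18.99 to 19.55 in MEF-ieSCs and 19.49 to 19.66 in TTF-ieSCs, and Fap and Twist1 were below the filter level in both ieSC groups. Of 15 macrophage markers, 15 and 14 were lower, with summed levels of 16.77 to 16.81 in MEFs, 13.01 to 13.35 in MEF-ieSCs and 12.59 to 12.93 in TTF-ieSCs. C1qa, Laptm5 and Tyrobp were below the filter level in both ieSC groups, and C1qc in MEF-ieSCs. Of 14 embryonic Sertoli markers with a feature, 13 were tested: 6 rose and 3 fell in MEF-ieSCs, and 6 rose and 2 fell in TTF-ieSCs. The falls were Sox9 and Gata4 in both and Dmrt1 in MEF-ieSCs, all factors that the labels list as transgenes. The marker not tested was Amh, the hormone that defines embryonic Sertoli cells, which did not pass the filter over the series. Amh and Gata1 were below the filter level on all arrays of TTF-ieSCs and of MEFs, and Sox8 on both MEF arrays. Beside these marker counts, 27.2% of all genes rose and 24.0% fell in MEF-ieSCs, and 23.3% and 21.9% in TTF-ieSCs. In bulk RNA, fewer cells of a type and less RNA per cell cannot be told apart. The part of the fibroblast and macrophage RNA in the differences from MEFs was not tested.

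Against MEFs, 21 of the 39 genes were called in MEF-ieSCs, 11 higher and 10 lower, where 51.2% of all genes were called (27.2% higher and 24.0% lower). In TTF-ieSCs 21 were called, 8 higher and 13 lower, against 45.1% of all genes (23.3% higher and 21.9% lower). The members' shares, 53.8% in each, were near the first background and somewhat above the second. The median difference over the members was -0.008 in MEF-ieSCs and -0.23 in TTF-ieSCs, and over all genes it was 0.10 and 0.06. Between the origins 17 members were called, 5 higher and 12 lower in TTF-ieSCs (43.6%), where 36.0% of all genes were (16.8% higher and 19.3% lower). The arrays of the groups did not overlap for 32 members in MEF-ieSCs against MEFs (76.3% of all genes), 33 in TTF-ieSCs (72.1%) and 18 between the origins (48.3%). The members' median size of change, with the sign ignored, was 1.24 in MEF-ieSCs and 1.12 in TTF-ieSCs, and over all genes 0.54 and 0.47.

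**Figure D1:**
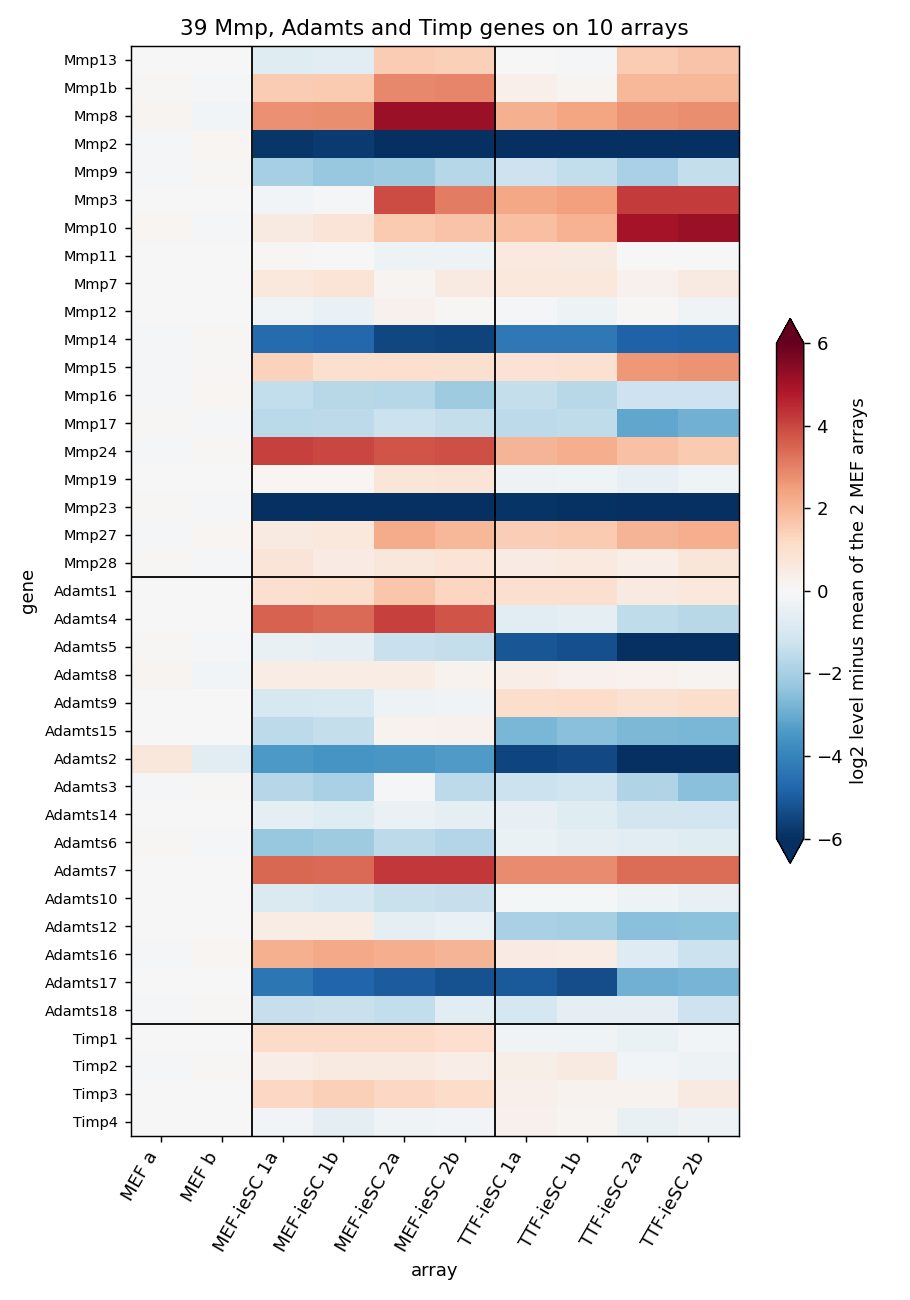
Each row is a tested Mmp, Adamts or Timp gene and each column an array; colour gives the log2 level minus the mean of the 2 MEF arrays, from -6 (dark blue) to 6 (dark red), with values beyond the scale drawn at its ends. Mmp2, Mmp14 and Mmp23 are blue on all 8 ieSC arrays, while Adamts4 is red on the 4 MEF-ieSC arrays and pale blue on the 4 TTF-ieSC arrays.

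The gelatinase Mmp2 and its activator Mmp14 fell in both kinds of ieSC. Mmp2 was 14.91 and 15.12 in MEFs. MEF-ieSCs had 9.19 and 9.28 in preparation 1 and 7.45 and 7.48 in preparation 2. TTF-ieSCs had 4.93 and 4.85 in preparation 1 and 3.55 and 4.17 in preparation 2. No ieSC array came near the MEF level, and all 4 TTF-ieSC arrays lay below the filter level, so the size of that fall is uncertain. The fall was -6.67 ± 0.65 (adjusted p = 2.34e-05), or 102-fold, in MEF-ieSCs and -10.64 ± 0.65 (adjusted p = 1.27e-06) in TTF-ieSCs. The TTF-ieSC arrays also lay below every MEF-ieSC array, at -3.98 ± 0.53 (adjusted p = 0.000395). In MEF-ieSCs preparation 2 was lower than preparation 1, at -1.77 ± 0.18 (adjusted p = 0.000504). Both preparations of TTF-ieSCs lay below the filter level, so the order between them, although called, is not read here.

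Mmp14 encodes MT1-MMP, a collagenase of the cell surface that also turns the Mmp2 precursor into active enzyme. MEFs had 12.74 and 12.91. MEF-ieSCs had 8.19 and 8.12 in preparation 1 and 7.36 and 7.26 in preparation 2, and TTF-ieSCs had 8.52 and 8.53 in preparation 1 and 7.99 and 7.91 in preparation 2. The 8 ieSC arrays lay together and more than 4 below the MEFs on the log2 scale. The fall was -5.10 ± 0.32 (adjusted p = 1.22e-06) in MEF-ieSCs, 34.2-fold, and -4.59 ± 0.32 (adjusted p = 3e-06) in TTF-ieSCs, 24.1-fold. The ieSC groups overlapped, with a difference of 0.51 ± 0.26 (adjusted p = 0.164). Preparation 2 was lower than preparation 1 in both origins, at -0.58 ± 0.078 (adjusted p = 0.00155) and -0.84 ± 0.078 (adjusted p = 0.000301).

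Mmp23 is a membrane-anchored MMP known from ovary, testis and prostate. Its level was 14.52 and 14.42 in MEFs, 8.03 and 7.99 in preparation 1 and 8.03 and 7.89 in preparation 2 of MEF-ieSCs, and 8.57 and 8.56 in preparation 1 and 8.26 and 8.30 in preparation 2 of TTF-ieSCs. It had the smallest adjusted p of the members against MEFs, at -6.48 ± 0.14 (adjusted p = 5.61e-09), or 89.5-fold, in MEF-ieSCs and -6.05 ± 0.14 (adjusted p = 7.31e-09), or 66.2-fold, in TTF-ieSCs. The 8 ieSC arrays spanned less than 1 on the log2 scale. TTF-ieSCs were slightly above MEF-ieSCs, by 0.43 ± 0.11 (adjusted p = 0.0151). That call was lost without preparation 1 of the TTF-ieSCs, where the difference was 0.29 (adjusted p = 0.0535).

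Mmp9, the other gelatinase, is made by many leukocytes. It stood at 6.24 and 6.33 in MEFs, and the ieSC arrays ranged from 4.02 to 5.02, all but the highest below the filter level. The falls were -2.02 ± 0.34 (adjusted p = 0.000867) in MEF-ieSCs and -1.52 ± 0.34 (adjusted p = 0.00511) in TTF-ieSCs. Its 10 features gave group means of 5.93 ± 0.24 (SD over features) in MEFs, 3.71 ± 0.35 in MEF-ieSCs and 4.21 ± 0.31 in TTF-ieSCs, and each feature was lower in both ieSC groups. The ieSC means lie below the filter level, so the sizes are uncertain. All 10 features passed the filter through the MEF arrays. Their lower ieSC levels were therefore largely set by the filter and are no further support for the falls. Ctss, a cathepsin that is also a macrophage marker, fell in both (-7.32 and -7.19). The part of macrophage RNA in the Mmp9 result was not tested.

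**Figure D2:**
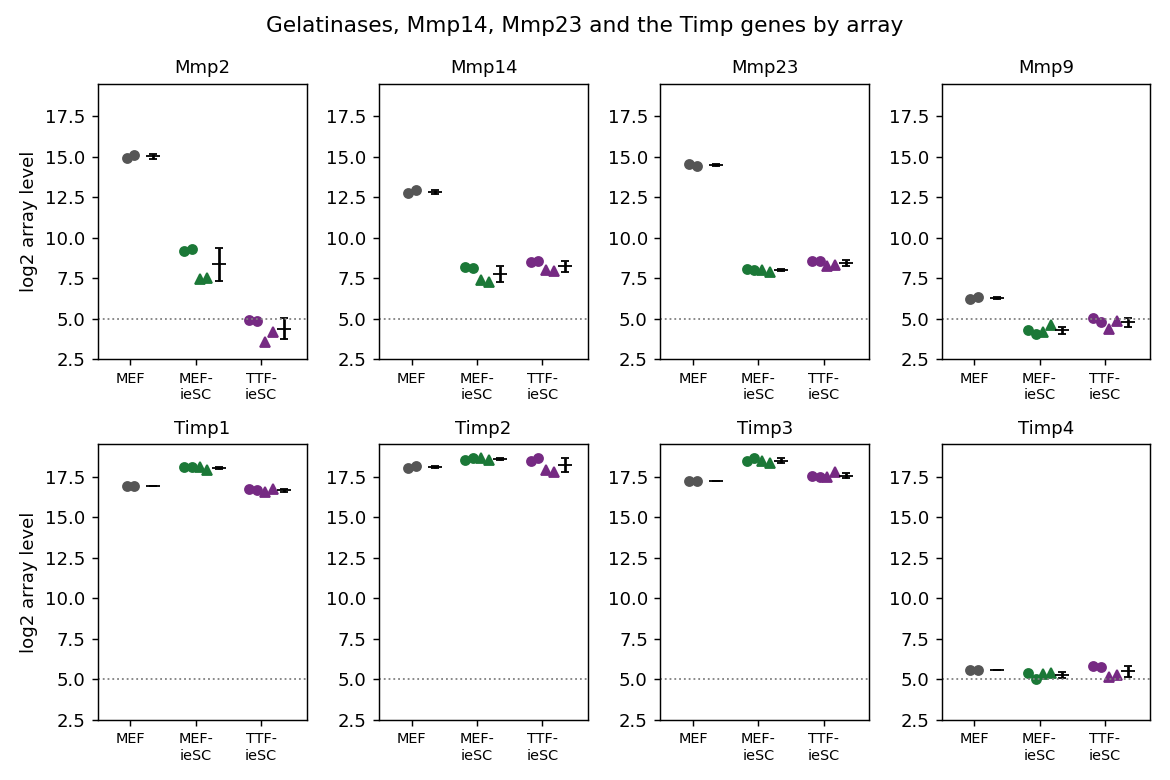
Panels give the log2 array level of 8 genes on the 10 arrays: points are arrays (grey MEFs, green MEF-ieSCs, purple TTF-ieSCs, circles for preparation 1 and MEFs, triangles for preparation 2), bars are group mean ± SD, and the dotted line is the filter level near 5. Mmp2 steps down from about 15 in MEFs to below the line in TTF-ieSCs, while Timp1 and Timp3 lie above MEFs in MEF-ieSCs.

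The other membrane-type MMPs moved in both directions. Mmp24, or MT5-MMP, is known from the nervous system. It was 4.90 and 5.02 in MEFs, at the filter level, 9.06 and 8.98 in preparation 1 and 8.71 and 8.84 in preparation 2 of MEF-ieSCs, and 7.002 and 7.14 in preparation 1 and 6.74 and 6.52 in preparation 2 of TTF-ieSCs. The 3 groups did not overlap. It rose by 3.94 ± 0.21 (adjusted p = 5.12e-07) in MEF-ieSCs and 1.89 ± 0.21 (adjusted p = 7.81e-05) in TTF-ieSCs, and was lower in TTF-ieSCs than in MEF-ieSCs, at -2.05 ± 0.17 (adjusted p = 2.71e-05). Its 2 features gave rises of 1.22 and 3.94 in MEF-ieSCs and of 0.47 and 1.89 in TTF-ieSCs, so its size depends on the feature.

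Mmp15, or MT2-MMP, was 6.37 and 6.47 in MEFs, 7.82 and 7.40 in preparation 1 and 7.41 and 7.40 in preparation 2 of MEF-ieSCs, and 7.29 and 7.34 in preparation 1 and 9.03 and 9.12 in preparation 2 of TTF-ieSCs. The 2 arrays of preparation 2 of the TTF-ieSCs stood above all others. The difference from MEFs was called in TTF-ieSCs, at 1.77 ± 0.55 (adjusted p = 0.0247), and was 1.09 ± 0.55 (adjusted p = 0.127) in MEF-ieSCs. Without preparation 2 the TTF-ieSC rise was 0.89, and without MEF array a it was 1.72 with an adjusted p of 0.0582. The preparations of TTF-ieSCs differed by 1.76 ± 0.13 (adjusted p = 8.29e-05).

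Mmp17, or MT4-MMP, is held to the membrane by a lipid anchor. MEFs had 9.70 and 9.57, MEF-ieSCs 8.04 and 8.04 in preparation 1 and 8.35 and 8.21 in preparation 2, and TTF-ieSCs 8.07 and 8.12 in preparation 1 and 6.50 and 6.76 in preparation 2. It fell in both, at -1.48 ± 0.45 (adjusted p = 0.0217) in MEF-ieSCs and -2.27 ± 0.45 (adjusted p = 0.00264) in TTF-ieSCs, where preparation 2 was lower than 1, at -1.46 ± 0.10 (adjusted p = 6.43e-05). Mmp16, or MT3-MMP, was 5.06 and 5.28 in MEFs and below the filter level on all 8 ieSC arrays (3.05 to 3.94), with differences of -1.73 ± 0.28 (adjusted p = 0.000602) and -1.39 ± 0.28 (adjusted p = 0.00259). It passed the filter through the MEF arrays alone, so lower was the only direction its difference could take. Its calls are therefore not read as a result. Of the 5 membrane-type genes tested, 3 fell and 1 rose in MEF-ieSCs, and 3 fell and 2 rose in TTF-ieSCs, with Mmp16 among the falls in each. The sixth, Mmp25, was below the filter level on all arrays.

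Collagenases and stromelysins sit side by side in the mouse genome. In the RefSeq gene order of GRCm38.p6, 10 Mmp genes of chromosome 9 follow each other in the order Mmp13, Mmp12, Mmp1b, Mmp3, Mmp1a, Mmp10, Mmp8, Mmp27, Mmp20 and Mmp7, with 3 noncoding genes or pseudogenes and no other protein-coding gene between them. Of the 10, 8 were tested. They were set apart by their position after their values had been seen. The promoters of the 6 that were higher in preparation 2 in both origins are shown, from 130 bases before to 20 bases after the RefSeq start, because these genes moved together. Capitals mark TGANTCA, the core bound by the Fos and Jun proteins of the AP-1 factor, and TATAAA, the letters of the TATA box. Each was read on both strands and marked at any distance from the start, so a mark is a match of letters only.
Mmp13, chr9:7272384-7272533, plus strand: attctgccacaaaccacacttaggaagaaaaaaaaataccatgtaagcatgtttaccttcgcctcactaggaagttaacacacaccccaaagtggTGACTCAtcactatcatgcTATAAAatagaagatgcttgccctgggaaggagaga
Mmp1b, chr9:7388007-7388156, minus strand: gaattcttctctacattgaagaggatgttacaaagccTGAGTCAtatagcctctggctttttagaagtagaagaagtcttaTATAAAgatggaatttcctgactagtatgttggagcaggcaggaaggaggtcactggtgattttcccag
Mmp3, chr9:7445692-7445841, plus strand: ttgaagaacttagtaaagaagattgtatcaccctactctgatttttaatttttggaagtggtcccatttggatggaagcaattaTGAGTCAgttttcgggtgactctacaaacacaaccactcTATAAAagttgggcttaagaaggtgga
Mmp10, chr9:7502212-7502361, plus strand: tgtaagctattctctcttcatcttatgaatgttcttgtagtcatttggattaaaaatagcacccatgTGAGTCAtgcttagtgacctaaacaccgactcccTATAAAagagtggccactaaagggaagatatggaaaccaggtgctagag
Mmp8, chr9:7558299-7558448, plus strand: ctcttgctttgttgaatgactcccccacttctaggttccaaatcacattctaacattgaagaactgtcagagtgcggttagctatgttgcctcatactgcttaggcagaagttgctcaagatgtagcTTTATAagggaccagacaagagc
Mmp27, chr9:7571266-7571415, plus strand: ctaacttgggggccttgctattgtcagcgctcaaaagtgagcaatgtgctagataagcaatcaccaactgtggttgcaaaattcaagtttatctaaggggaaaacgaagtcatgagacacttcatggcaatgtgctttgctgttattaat

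In these windows TGANTCA began 35 bases before the start of Mmp13, 93 before Mmp1b, 46 before Mmp3 and 63 before Mmp10. Mmp8 and Mmp27 held none. TATAAA began 16 bases before the start of Mmp13, 49 before Mmp1b, 7 before Mmp3 and 29 before Mmp10. In Mmp8 it was read on the other strand, 3 bases before the start, and the Mmp27 window held none. Over the full 300 bases of a RefSeq promoter entry (250 before to 50 after the start), 8 of the 10 cluster genes held TGANTCA, against 8.97% of all 27025 genes with an entry and 0 of the 22 other Mmp, Adamts and Timp genes with an entry. TATAAA was in 9 of the 10, in 15.67% of all genes and in 2 of the 22. A gene counted if any of its entries held the motif. The cluster promoters had a median of 41.7% G and C, the other members 64.7% and all promoters 52.7%. Mmp12 and Mmp7 hold both motifs too. The search was made after the values were seen, a match is a description of the letters, and binding was not measured.

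Mmp13, collagenase 3, is known from cartilage and bone. MEFs had 11.55 and 11.63, MEF-ieSCs 10.84 and 10.98 in preparation 1 and 13.12 and 13.04 in preparation 2, and TTF-ieSCs 11.59 and 11.51 in preparation 1 and 13.11 and 13.30 in preparation 2. The preparations parted more than the groups did: preparation 2 was above MEFs in both origins, and preparation 1 at or below them. Neither ieSC group was called against MEFs, at 0.40 ± 0.79 (adjusted p = 0.707) and 0.79 ± 0.79 (adjusted p = 0.47). Preparation 2 exceeded 1 by 2.17 ± 0.087 (adjusted p = 7.57e-06) in MEF-ieSCs and 1.66 ± 0.087 (adjusted p = 1.85e-05) in TTF-ieSCs. Of 9 cartilage and bone markers tested, 0 were higher in preparation 2 of either origin by limma, and 2 were lower in TTF-ieSCs and 1 in MEF-ieSCs.

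Mmp8, the collagenase first known from neutrophils, rose from below the filter level. It was 4.40 and 4.09 in MEFs, 6.97 and 7.05 in preparation 1 and 9.41 and 9.41 in preparation 2 of MEF-ieSCs, and 6.35 and 6.62 in preparation 1 and 6.95 and 7.05 in preparation 2 of TTF-ieSCs. All ieSC arrays lay above both MEF arrays. The rise was 3.97 ± 0.73 (adjusted p = 0.00144) in MEF-ieSCs and 2.5 ± 0.73 (adjusted p = 0.0192) in TTF-ieSCs, and the second call was lost without MEF array b (2.35, adjusted p = 0.0518) and without preparation 2 (2.25, adjusted p = 0.0867). Preparation 2 exceeded 1 by 2.40 ± 0.12 (adjusted p = 2.03e-05) in MEF-ieSCs and 0.51 ± 0.12 (adjusted p = 0.0221) in TTF-ieSCs. Summed levels of 8 neutrophil and mast cell markers were 9.36 to 9.40 in MEFs, 12.36 to 12.90 in MEF-ieSCs and 9.19 to 9.44 in TTF-ieSCs, with Ngp, Cpa3 and Fcer1a below the filter level in both ieSC groups. Of the 5 tested, 2 rose and 1 fell in MEF-ieSCs, and 1 rose and 1 fell in TTF-ieSCs. In MEF-ieSCs S100a8 (7.25) and Mcpt4 (4.33) rose, Camp fell (-1.18), and S100a9 and Tpsb2 were not called. S100a8 alone had a mean of 11.94 in MEF-ieSCs against 4.69 in MEFs. The part of neutrophil and mast cell RNA in the Mmp8 result was not tested.

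Mmp1b is a mouse relative of human collagenase 1. It was 6.26 and 6.13 in MEFs, 7.71 and 7.76 in preparation 1 and 9.08 and 9.12 in preparation 2 of MEF-ieSCs, and 6.51 and 6.38 in preparation 1 and 8.18 and 8.18 in preparation 2 of TTF-ieSCs. The rise was called in MEF-ieSCs, at 2.22 ± 0.64 (adjusted p = 0.0167), but not without their preparation 2 (1.54, adjusted p = 0.0901), and TTF-ieSCs differed from MEFs by 1.12 ± 0.64 (adjusted p = 0.194). Preparation 2 was higher by 1.74 ± 0.073 (adjusted p = 5.64e-06) in TTF-ieSCs and 1.37 ± 0.073 (adjusted p = 2.24e-05) in MEF-ieSCs.

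Mmp3, stromelysin 1, cuts proteoglycans, laminin and the precursors of other MMPs. It was 12.45 and 12.52 in MEFs, 12.32 and 12.38 in preparation 1 and 16.39 and 15.56 in preparation 2 of MEF-ieSCs, and 14.80 and 14.93 in preparation 1 and 16.66 and 16.68 in preparation 2 of TTF-ieSCs. Preparation 1 of the MEF-ieSCs lay just below MEFs, while the other 6 ieSC arrays lay above them. Preparation 2 exceeded 1 by 3.63 ± 0.23 (adjusted p = 4.71e-05) in MEF-ieSCs, 12.4-fold, the largest preparation difference of any member in either origin, and by 1.81 ± 0.23 (adjusted p = 0.00108) in TTF-ieSCs. No group difference was called: 1.68 ± 1.21 (adjusted p = 0.282) for MEF-ieSCs and 3.28 ± 1.21 (adjusted p = 0.0516) for TTF-ieSCs against MEFs.

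Mmp10, stromelysin 2, was 5.22 and 4.99 in MEFs, 5.64 and 5.86 in preparation 1 and 6.68 and 6.79 in preparation 2 of MEF-ieSCs, and 6.93 and 7.18 in preparation 1 and 10.10 and 10.29 in preparation 2 of TTF-ieSCs. Every ieSC array was above both MEF arrays, and preparation 2 of the TTF-ieSCs stood far above the rest. The rise in TTF-ieSCs was 3.52 ± 0.96 (adjusted p = 0.0142), and 1.95 without their preparation 2. MEF-ieSCs differed from MEFs by 1.14 ± 0.96 (adjusted p = 0.36). Between origins the difference was 2.38 ± 0.79 (adjusted p = 0.0404), a call that was lost when any 1 of 9 arrays, all but TTF-ieSC 1a, was left out (2.19 to 2.49). It was 0.81 without preparation 2 of the TTF-ieSCs and 3.95 without preparation 1. Preparations differed by 3.14 ± 0.13 (adjusted p = 5.87e-06) in TTF-ieSCs and 0.99 ± 0.13 (adjusted p = 0.00179) in MEF-ieSCs.

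Mmp27 was 5.43 and 5.66 in MEFs, 6.08 and 6.18 in preparation 1 and 7.77 and 7.52 in preparation 2 of MEF-ieSCs, and 7.01 and 7.13 in preparation 1 and 7.58 and 7.72 in preparation 2 of TTF-ieSCs. It was called higher in TTF-ieSCs, at 1.81 ± 0.50 (adjusted p = 0.0146), but not without their preparation 2 (1.53, adjusted p = 0.0748). In MEF-ieSCs the difference was 1.34 ± 0.50 (adjusted p = 0.0479), and that call was lost when any 1 of 9 arrays, all but MEF-ieSC 1a, was left out (1.21 to 1.46). It was 0.58 without their preparation 2 and 2.10 without preparation 1. The preparations differed by 1.51 ± 0.12 (adjusted p = 0.000127) in MEF-ieSCs and 0.58 ± 0.12 (adjusted p = 0.00995) in TTF-ieSCs. Mmp12, the macrophage elastase, and Mmp7, matrilysin, lay between 4.85 and 5.76 on all arrays and were not called against MEFs. Mmp12 differed from MEFs by -0.07 and -0.14, beside macrophage markers with medians of -5.45 and -5.58. Its level in MEFs, 5.22 and 5.29, was already near the filter level. A fall could hardly have shown, so these values cannot be set against those of the markers.

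Over the 8 cluster genes tested, 3 rose and 0 fell in each kind of ieSC against MEFs by limma, with medians of 1.24 in MEF-ieSCs and 1.47 in TTF-ieSCs. Over all genes 27.2% rose and 24.0% fell in MEF-ieSCs, and 23.3% and 21.9% in TTF-ieSCs. Of the other 11 Mmp genes, 2 rose and 6 fell in each, with medians of -1.48 and -1.39. Among these falls, Mmp9 and Mmp16 had passed the filter through the MEF arrays. Between preparations 6 cluster genes rose and 0 fell in TTF-ieSCs, and 7 rose and 0 fell in MEF-ieSCs, where 12% and 13.6% of all genes did in TTF-ieSCs and 10.2% and 11.7% in MEF-ieSCs. The cluster was set apart after its values were seen, so these counts are a description. The other 11 had 1 rise and 6 falls in TTF-ieSCs, and 1 rise and 3 falls in MEF-ieSCs.

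**Figure D3:**
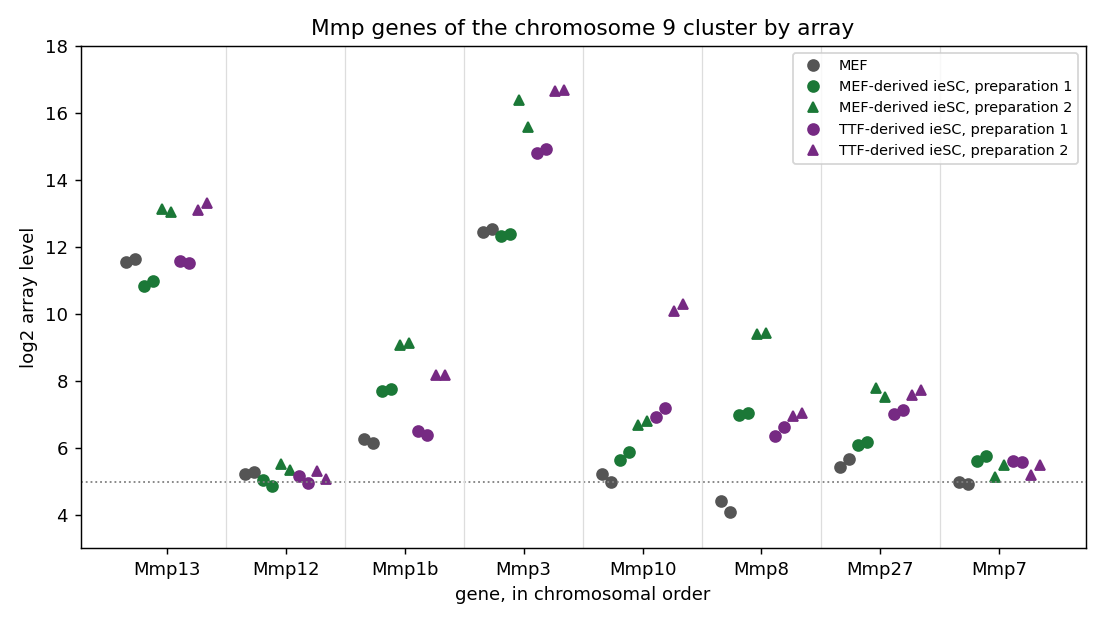
The log2 array level of the 8 tested Mmp genes of chromosome 9 on each array, in chromosomal order; circles are MEFs and preparation 1, triangles preparation 2, and the dotted line is the filter level near 5. For Mmp13, Mmp1b, Mmp3, Mmp10, Mmp8 and Mmp27 the triangles lie above the circles of the same colour, and for Mmp7 they do not.

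Mmp11, stromelysin 3, lies outside the cluster and ran between 13.14 and 13.997 on all arrays, with no call against MEFs and lower levels in preparation 2 of both origins, at -0.54 ± 0.053 (adjusted p = 0.000354) and -0.31 ± 0.053 (adjusted p = 0.00541). Mmp19 was 8.998 and 8.99 in MEFs and lower in TTF-ieSCs than in MEF-ieSCs, at -0.75 ± 0.18 (adjusted p = 0.0115). Mmp28, or epilysin, was 0.69 ± 0.23 (adjusted p = 0.0286) from MEFs in MEF-ieSCs and 0.55 ± 0.23 (adjusted p = 0.0735) in TTF-ieSCs.

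The aggrecanases Adamts4 and Adamts5 gave the largest differences between the origins. Adamts4 was 13.13 and 13.18 in MEFs, 16.67 and 16.55 in preparation 1 and 17.27 and 16.91 in preparation 2 of MEF-ieSCs, and 12.45 and 12.61 in preparation 1 and 11.65 and 11.48 in preparation 2 of TTF-ieSCs. All 4 MEF-ieSC arrays lay above MEFs and all 4 TTF-ieSC arrays below them. It rose by 3.70 ± 0.37 (adjusted p = 2.72e-05), 13-fold, in MEF-ieSCs, and it was the only member called in opposite directions against MEFs by the 2 origins. The fall in TTF-ieSCs was -1.11 ± 0.37 (adjusted p = 0.0344), a call that was lost when either MEF array or either array of preparation 2 was left out (-1.13 to -1.02, highest adjusted p = 0.0739) and without preparation 2 (-0.62, adjusted p = 0.101). TTF-ieSCs were below MEF-ieSCs, at -4.81 ± 0.30 (adjusted p = 3.8e-06), 28-fold, and this held in all 25 alternatives (-5.29 to -4.32). Its 2 features gave 3.23 and 3.70 in MEF-ieSCs, and -1.11 and -0.84 in TTF-ieSCs. Preparation 2 was lower than 1 in TTF-ieSCs, at -0.97 ± 0.13 (adjusted p = 0.00133), and higher in MEF-ieSCs, at 0.48 ± 0.13 (adjusted p = 0.035).

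Adamts5 was 11.56 and 11.46 in MEFs, 11.07 and 10.96 in preparation 1 and 10.18 and 10.08 in preparation 2 of MEF-ieSCs, and 6.38 and 6.25 in preparation 1 and 4.71 and 4.54 in preparation 2 of TTF-ieSCs. MEF-ieSCs lay below MEFs without a call, at -0.94 ± 0.56 (adjusted p = 0.199). TTF-ieSCs fell by 6.04 ± 0.56 (adjusted p = 2.07e-05), with preparation 2 below the filter level, and were below MEF-ieSCs, at -5.11 ± 0.46 (adjusted p = 3.67e-05). Preparation 2 was lower in both origins, at -1.69 ± 0.089 (adjusted p = 1.86e-05) and -0.89 ± 0.089 (adjusted p = 0.000454).

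Adamts15, also an aggrecanase, followed a similar split. It was 12.44 and 12.43 in MEFs, 10.88 and 10.99 in preparation 1 and 12.63 and 12.69 in preparation 2 of MEF-ieSCs, and 9.67 and 9.94 in preparation 1 and 9.75 and 9.71 in preparation 2 of TTF-ieSCs. The MEF-ieSC preparations lay on either side of the MEF level and differed by 1.72 ± 0.093 (adjusted p = 2.35e-05), and the group difference from MEFs was -0.64 ± 0.51 (adjusted p = 0.336). TTF-ieSCs fell by 2.67 ± 0.51 (adjusted p = 0.00216) and were below MEF-ieSCs, at -2.03 ± 0.42 (adjusted p = 0.00463), or, at -1.17 without preparation 2 of the MEF-ieSCs. Of the 6 proteoglycan-cleaving genes tested, 2 rose and 0 fell in MEF-ieSCs by limma, and 2 rose and 3 fell in TTF-ieSCs.

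Adamts1 and Adamts9, which cut versican, ran the other way in TTF-ieSCs. Adamts1 was 14.67 and 14.77 in MEFs, 15.67 and 15.79 in preparation 1 and 16.37 and 16.01 in preparation 2 of MEF-ieSCs, and 15.67 and 15.66 in preparation 1 and 15.26 and 15.37 in preparation 2 of TTF-ieSCs, all ieSC arrays above both MEF arrays. The rise was 1.24 ± 0.25 (adjusted p = 0.00245) in MEF-ieSCs and 0.77 ± 0.25 (adjusted p = 0.0306) in TTF-ieSCs. The second call was lost without MEF array a, TTF-ieSC array 1b or TTF-ieSC array 2b (0.73 to 0.76) and without preparation 1 (0.60, adjusted p = 0.0925). Adamts9 was 12.38 and 12.39 in MEFs, 11.44 and 11.49 in preparation 1 and 12.06 and 12.19 in preparation 2 of MEF-ieSCs, and 13.45 and 13.47 in preparation 1 and 13.30 and 13.46 in preparation 2 of TTF-ieSCs. The 3 groups did not overlap, with TTF-ieSCs highest and MEF-ieSCs lowest. It rose by 1.03 ± 0.23 (adjusted p = 0.00453) in TTF-ieSCs, differed by -0.59 ± 0.23 (adjusted p = 0.0549) in MEF-ieSCs, and was higher in TTF-ieSCs than in MEF-ieSCs by 1.62 ± 0.18 (adjusted p = 0.000154). Adamts8 stayed between 6.02 and 6.61 on all arrays with no call against MEFs, but its other kept feature differed by -2.13 in TTF-ieSCs against 0.26 for the feature used.

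Of the procollagen N-propeptidases, Adamts2 fell in both kinds of ieSC. It was 16.35 and 14.97 in MEFs, 12.22 and 12.11 in preparation 1 and 12.17 and 12.25 in preparation 2 of MEF-ieSCs, and 10.13 and 10.23 in preparation 1 and 9.10 and 8.94 in preparation 2 of TTF-ieSCs. The groups did not overlap, although the 2 MEF arrays were themselves more than 1 apart. The fall was -3.47 ± 0.67 (adjusted p = 0.00187) in MEF-ieSCs and -6.06 ± 0.67 (adjusted p = 6.27e-05) in TTF-ieSCs, and TTF-ieSCs were below MEF-ieSCs, at -2.59 ± 0.54 (adjusted p = 0.00505). Its other kept feature gave -2.33 and -2.36 against MEFs and -0.03 between the origins, and with the mean of both features the difference between origins was -1.31 and no call (adjusted p = 0.0807). On that other feature TTF-ieSC array 2b stood apart, at 8.58 against 5.69 to 5.84 on the other 3. Without this array, a choice made after seeing the data, the feature's differences were -3.06 for TTF-ieSCs against MEFs and -0.73 between the origins, with no test. Adamts14 was 12.49 and 12.55 in MEFs, with -0.86 ± 0.22 (adjusted p = 0.00963) in TTF-ieSCs and -0.57 ± 0.22 (adjusted p = 0.0532) in MEF-ieSCs. Its other kept feature gave -0.04 in TTF-ieSCs and 0.15 in MEF-ieSCs, so the called fall depends on the feature. Adamts3 was near or below the filter level on all arrays (2.95 to 5.56) and was not called in any of the 5 comparisons.

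**Figure D4:**
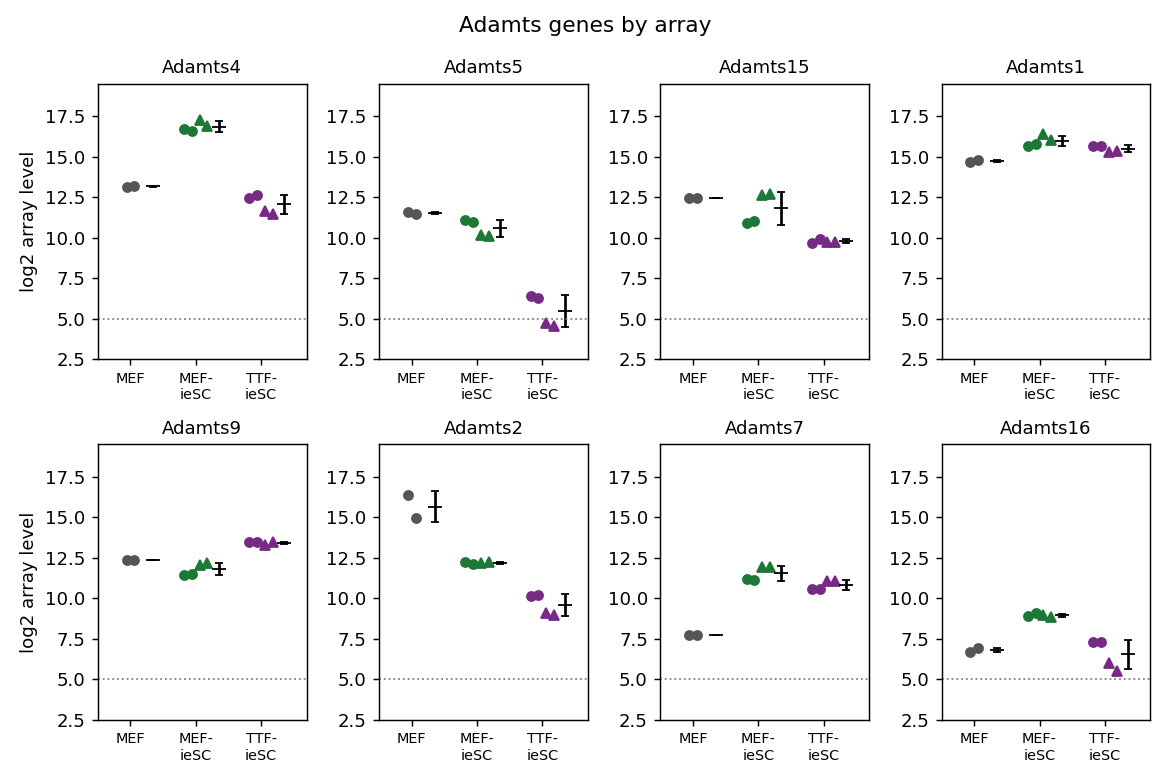
Panels give the log2 array level of 8 Adamts genes on the 10 arrays: points are arrays (grey MEFs, green MEF-ieSCs, purple TTF-ieSCs, circles for preparation 1 and MEFs, triangles for preparation 2), bars are group mean ± SD, and the dotted line is the filter level near 5. Adamts4 is near 17 in MEF-ieSCs against 11.48 to 12.61 in TTF-ieSCs, and Adamts5 falls to or below the line in preparation 2 of the TTF-ieSCs.

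Among the other Adamts genes, Adamts7, which cuts the cartilage protein COMP, rose in both kinds of ieSC. It was 7.73 and 7.72 in MEFs, 11.17 and 11.14 in preparation 1 and 11.95 and 11.96 in preparation 2 of MEF-ieSCs, and 10.57 and 10.57 in preparation 1 and 11.07 and 11.06 in preparation 2 of TTF-ieSCs. All 8 ieSC arrays were above MEFs by more than 2 on the log2 scale. The rise was 3.83 ± 0.28 (adjusted p = 3.69e-06), 14.2-fold, in MEF-ieSCs and 3.09 ± 0.28 (adjusted p = 1.79e-05), 8.54-fold, in TTF-ieSCs, and preparation 2 was the higher in both, by 0.80 ± 0.051 (adjusted p = 5.29e-05) and 0.49 ± 0.051 (adjusted p = 0.000465). Adamts12, which also cuts COMP, did not share this pattern. It was 7.01 and 7.01 in MEFs, 7.47 and 7.45 in preparation 1 and 6.47 and 6.63 in preparation 2 of MEF-ieSCs, and 5.09 and 5.02 in preparation 1 and 4.51 and 4.54 in preparation 2 of TTF-ieSCs, the last below the filter level. The difference from MEFs was -0.008 ± 0.32 (adjusted p = 0.987) in MEF-ieSCs and -2.22 ± 0.32 (adjusted p = 0.000379) in TTF-ieSCs, whose mean is below the filter level, so the size of that fall is uncertain.

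Adamts16, known from the developing gonad and kidney, was 6.70 and 6.91 in MEFs, 8.93 and 9.06 in preparation 1 and 8.97 and 8.82 in preparation 2 of MEF-ieSCs, and 7.30 and 7.27 in preparation 1 and 6.02 and 5.53 in preparation 2 of TTF-ieSCs. The 4 MEF-ieSC arrays stood above all the others. It rose by 2.14 ± 0.50 (adjusted p = 0.00556) in MEF-ieSCs, differed from MEFs by -0.28 ± 0.50 (adjusted p = 0.701) in TTF-ieSCs, and was lower in TTF-ieSCs than in MEF-ieSCs, at -2.42 ± 0.41 (adjusted p = 0.00151). The preparations of TTF-ieSCs differed by -1.51 ± 0.16 (adjusted p = 0.00048), and the difference in MEF-ieSCs was -0.10 ± 0.16 (adjusted p = 0.72).

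Adamts17, an enzyme linked to fibrillin microfibrils, fell in both origins. It was 9.52 and 9.52 in MEFs, 5.18 and 4.76 in preparation 1 and 4.54 and 4.31 in preparation 2 of MEF-ieSCs, and 4.50 and 4.21 in preparation 1 and 6.65 and 6.75 in preparation 2 of TTF-ieSCs. Every ieSC array lay below MEFs, and those of MEF-ieSCs and of preparation 1 of TTF-ieSCs were near or below the filter level. The fall was -4.82 ± 0.73 (adjusted p = 0.000436) in MEF-ieSCs and -3.99 ± 0.73 (adjusted p = 0.0016) in TTF-ieSCs. Its other kept feature gave smaller falls of -0.64 and -1.08. In TTF-ieSCs preparation 2 was higher by 2.34 ± 0.16 (adjusted p = 5.75e-05). In MEF-ieSCs it was -0.55 ± 0.16 (adjusted p = 0.0459), from levels around and below the filter level, while the other feature gave 0.11. That call ended when any 1 of 7 arrays (all but MEF-ieSC 1b and TTF-ieSC 1a and 1b) was left out (-0.66 to -0.33). It was also lost with the mean of both features (-0.22, adjusted p = 0.242), without the filter on dim features (adjusted p = 0.0718), without the MEF arrays (adjusted p = 0.0772) and on centred and scaled values (adjusted p = 0.0642).

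Adamts6 and Adamts10, both linked to fibrillin as well, fell in MEF-ieSCs. Adamts6 was 8.57 and 8.43 in MEFs, 6.20 and 6.36 in preparation 1 and 6.95 and 6.76 in preparation 2 of MEF-ieSCs, and 8.10 and 7.96 in preparation 1 and 7.84 and 7.76 in preparation 2 of TTF-ieSCs. Its differences were -1.93 ± 0.23 (adjusted p = 0.000107) in MEF-ieSCs, -0.58 ± 0.23 (adjusted p = 0.0708) in TTF-ieSCs, and 1.35 ± 0.19 (adjusted p = 0.000588) between the origins. For Adamts10 the same 3 differences were -1.15 ± 0.20 (adjusted p = 0.000902), -0.23 ± 0.20 (adjusted p = 0.394) and 0.93 ± 0.16 (adjusted p = 0.00174). Adamts18 was 5.59 and 5.69 in MEFs and was not called in any comparison.

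**Figure D5:**
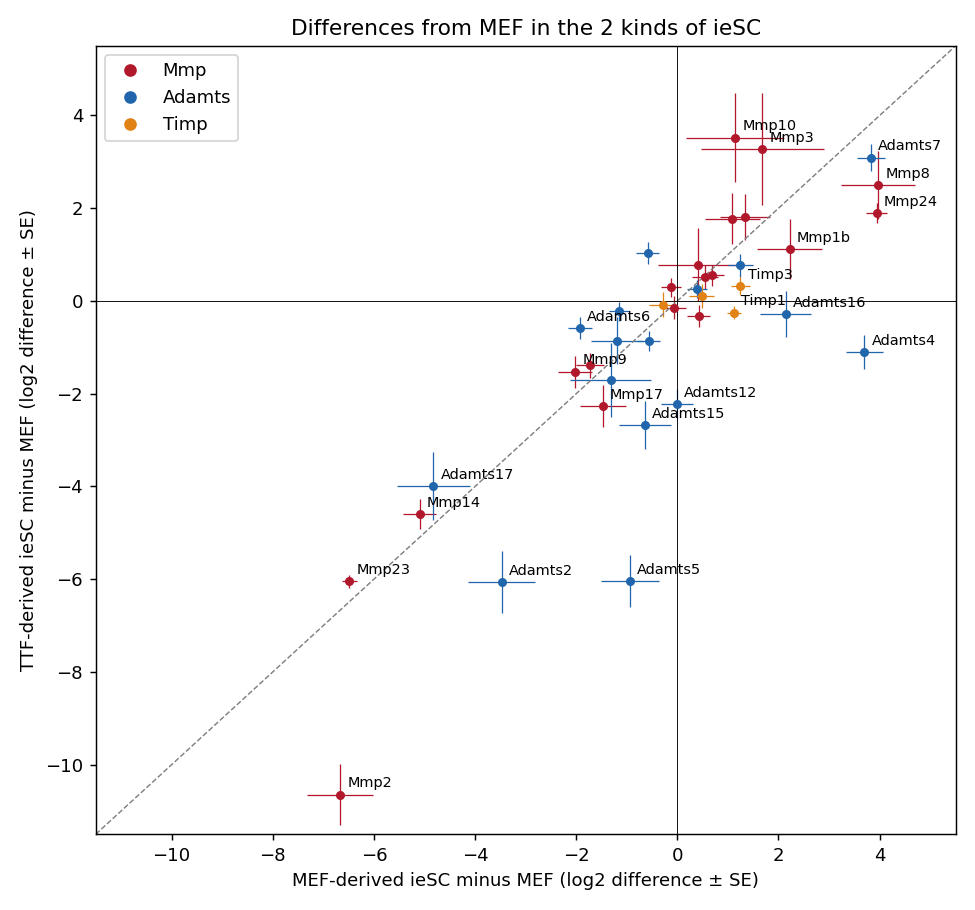
Each point is a tested gene, with its log2 difference from MEFs in MEF-ieSCs on the horizontal axis and in TTF-ieSCs on the vertical axis; lines are ± SE, colours give the gene family, and the dashed line marks equal differences. Both axes use the same 2 MEF arrays, so the points share them; Adamts5, Adamts4, Mmp2, Adamts2, Adamts16, Adamts12, Mmp24 and Adamts15 lie more than 2 below the dashed line.

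Of the inhibitors, Timp1 and Timp3 rose in MEF-ieSCs. Timp1, which binds most soluble MMPs, was 16.93 and 16.91 in MEFs, 18.08 and 18.07 in preparation 1 and 18.09 and 17.92 in preparation 2 of MEF-ieSCs, and 16.73 and 16.68 in preparation 1 and 16.54 and 16.74 in preparation 2 of TTF-ieSCs. The MEF-ieSC arrays were all above MEFs and the TTF-ieSC arrays all below them. It rose by 1.12 ± 0.14 (adjusted p = 0.000137), 2.17-fold, in MEF-ieSCs and differed by -0.25 ± 0.14 (adjusted p = 0.187) in TTF-ieSCs. The origins differed by -1.37 ± 0.12 (adjusted p = 2.5e-05).

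Timp3, which is bound to the matrix and also blocks Adamts4 and Adamts5, was 17.26 and 17.26 in MEFs, 18.49 and 18.69 in preparation 1 and 18.48 and 18.35 in preparation 2 of MEF-ieSCs, and 17.54 and 17.49 in preparation 1 and 17.48 and 17.79 in preparation 2 of TTF-ieSCs. Again the MEF-ieSC arrays stood above all others. The rise was 1.25 ± 0.19 (adjusted p = 0.000473) in MEF-ieSCs and the difference 0.32 ± 0.19 (adjusted p = 0.216) in TTF-ieSCs, with -0.93 ± 0.16 (adjusted p = 0.00148) between the origins. Without the block on array names, the TTF-ieSC differences from MEFs of Timp1 and Timp3 were called too, at adjusted p = 0.0271 and 0.0391.

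Timp2, which takes part with Mmp14 in the activation of Mmp2, was 18.05 and 18.17 in MEFs, 18.53 and 18.67 in preparation 1 and 18.64 and 18.53 in preparation 2 of MEF-ieSCs, and 18.46 and 18.67 in preparation 1 and 17.93 and 17.81 in preparation 2 of TTF-ieSCs. It was not called against MEFs, at 0.48 ± 0.25 (adjusted p = 0.146) and 0.10 ± 0.25 (adjusted p = 0.78), nor between origins, at -0.38 ± 0.21 (adjusted p = 0.197). These calls depend on the feature. The second feature gave 1.31 in MEF-ieSCs (adjusted p = 0.00606) and -1.13 between the origins (adjusted p = 0.00714), both called. The mean of both features was also called, at 0.90 in MEF-ieSCs (adjusted p = 0.0209) and -0.75 between the origins (adjusted p = 0.0257). Without preparation 1 of the TTF-ieSCs the difference between the origins was -0.72 and called (adjusted p = 0.00259), and without either preparation of TTF-ieSCs the unchanged difference of 0.48 in MEF-ieSCs was called (adjusted p = 0.00963 and 0.0196). In TTF-ieSCs preparation 2 was lower than 1, at -0.70 ± 0.098 (adjusted p = 0.0019), and the sign of the difference from MEFs turned without preparation 1 (-0.24) and on the centred and scaled values (-0.09). Timp4 lay between 5.00 and 5.83 on all arrays, with differences of -0.29 ± 0.27 (adjusted p = 0.404), -0.08 ± 0.27 (adjusted p = 0.849) and 0.21 ± 0.22 (adjusted p = 0.508), the last 2 changing sign when a preparation of TTF-ieSCs was left out. Of the 4 Timp genes 2 were called in MEF-ieSCs and 0 in TTF-ieSCs by limma, where no Timp had an unadjusted p under 0.05.

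Comparing preparation 2 with 1, 23 of the 39 genes were called in TTF-ieSCs, 9 higher and 14 lower (59.0%), where 25.6% of all genes were called (12% higher and 13.6% lower). In MEF-ieSCs 21 were called, 14 higher and 7 lower (53.8%), against 21.9% of all genes (10.2% higher and 11.7% lower). The arrays of preparations 1 and 2 did not overlap for 30 members in TTF-ieSCs (60.4% of all genes) and 28 in MEF-ieSCs (61.5%). The members' median size of difference was 0.51 in TTF-ieSCs and 0.46 in MEF-ieSCs, and over all genes 0.17 in each. These p-values rest on the spread between the 2 arrays of a name. In both origins 7 genes were higher in preparation 2: Mmp3, Mmp8, Mmp10, Mmp13, Mmp1b and Mmp27 of the cluster, and Adamts7. In both, 6 were called lower: Mmp14, Mmp11, Adamts5, Adamts10, Adamts12 and Mmp2, the last from levels below the filter level in TTF-ieSCs. Adamts5 and Adamts12 also ended below it in preparation 2 of TTF-ieSCs, so their sizes there are uncertain. For Adamts12 the differences were -0.91 ± 0.069 (adjusted p = 0.000123) in MEF-ieSCs and -0.53 ± 0.069 (adjusted p = 0.00129) in TTF-ieSCs. Adamts4 was called in opposite directions. So was Adamts17, whose difference in MEF-ieSCs lies around and below the filter level, took the other sign on its other feature and was lost without any 1 of 7 arrays. How many of all genes were called alike in both origins was not counted, so the 7 and the 6 only describe the members. Whether the number 1 or 2 marks anything shared by the 2 origins is not stated.

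Genes that act with these proteases were counted from lists of the pathway. Of 14 matrix substrates, 1 rose and 8 fell in MEF-ieSCs, and 1 rose and 9 fell in TTF-ieSCs, with medians of -2.27 and -3.54. The basement membrane protein Nid1 fell in both (-8.35 and -8.69), as did elastin, Eln (-7.12 and -4.35), and the proteoglycan Bgn (-5.77 and -6.17). Between preparations 8 substrates were lower and 0 higher by limma in preparation 2 of TTF-ieSCs, and 1 lower and 3 higher in MEF-ieSCs. Of 13 other matrix proteases tested, 4 rose and 5 fell in MEF-ieSCs, and 2 rose and 6 fell in TTF-ieSCs. Fap, a serine protease that marks fibroblasts, fell in both (-9.32 and -9.06), as did the cathepsins Ctsk (-6.22 and -6.67) and Ctss (-7.32 and -7.19).

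In the plasminogen system, which can activate MMP precursors, 4 of 7 genes rose and 1 fell in MEF-ieSCs, and 2 rose and 1 fell in TTF-ieSCs. Plat, the tissue plasminogen activator, rose by 2.37 ± 0.17 and 0.80 ± 0.17 and was lower in TTF-ieSCs than in MEF-ieSCs (-1.57 ± 0.14, adjusted p = 3.17e-05). The inhibitor Serpinb2 rose by 3.87 ± 0.42 in MEF-ieSCs and differed by 0.96 ± 0.42 in TTF-ieSCs (adjusted p = 0.0888). Plau, urokinase, fell by 1.78 ± 0.22 in MEF-ieSCs and differed by -0.28 ± 0.22 in TTF-ieSCs (adjusted p = 0.349). Of 5 activating convertases and partners, 1 rose and 2 fell in each kind of ieSC. Pcsk6, a convertase that activates precursors, fell in both (-3.52 and -2.08), as did Furin (-0.58 and -0.46), and Bsg, which induces MMPs in neighbouring cells, rose by 1.40 and 1.25.

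Of 9 further inhibitors and cofactors tested, 1 rose and 6 fell in MEF-ieSCs, and 1 rose and 5 fell in TTF-ieSCs. Thbs2, a matrix protein that helps to clear Mmp2, fell in both (-9.58 and -9.83). Fbln1, a cofactor of Adamts1, fell by 6.76 ± 0.26 in MEF-ieSCs, differed by -0.08 ± 0.26 in TTF-ieSCs, and was higher in TTF-ieSCs than in MEF-ieSCs by 6.69 ± 0.21 (adjusted p = 6.43e-08). Pcolce2, an enhancer of procollagen processing, rose by 3.87 and 3.73. Of 9 ADAM genes, relatives of the ADAMTS enzymes that sit in the membrane, 2 rose and 5 fell in MEF-ieSCs and 1 rose and 6 fell in TTF-ieSCs, led by Adam23, which lacks the zinc site of an active protease (-8.31 and -8.44), Adam33 (-4.31 and -2.52) and Adam8 (-3.16 and -3.72). Of 6 ADAMTS-like genes, which lack the protease domain, 1 rose and 3 fell in MEF-ieSCs and 1 rose and 4 fell in TTF-ieSCs. Adamtsl3 fell in both (-3.67 and -3.56), as did Adamtsl2 (-2.57 and -2.82), and Adamtsl5 rose by 1.53 and 1.23.

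Of 13 transcription factors (AP-1 and Ets factors with Egr1 and Runx2), 3 were higher and 4 lower in preparation 2 of TTF-ieSCs, and 5 higher and 4 lower in preparation 2 of MEF-ieSCs. Fosb was higher in both, by 0.63 ± 0.064 and 2.18 ± 0.064, and Fosl1 lower in both, at -0.85 ± 0.12 and -1.03 ± 0.12. Fos, Fosb and Fosl1 were named after their values were seen. Fos was higher in preparation 2 of MEF-ieSCs (0.89 ± 0.057, adjusted p = 5.41e-05) and differed by 0.16 ± 0.057 in TTF-ieSCs (adjusted p = 0.092). Against MEFs, Egr1 fell by 2.75 ± 0.32 in MEF-ieSCs, Fosl2 rose in both, by 1.05 and 1.54, and Runx2, a known regulator of Mmp13 in bone, rose by 1.04 ± 0.21 in MEF-ieSCs and differed by 0.04 ± 0.21 in TTF-ieSCs (adjusted p = 0.916).

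More than 1 feature was kept for 12 members, and these took the same sign in 11 of the 12 in each comparison of groups, the exceptions being Adamts14 in MEF-ieSCs (-0.57 and 0.15), Adamts8 in TTF-ieSCs and Adamts17 between the origins (-0.44 and 0.83). Between preparations 9 of 12 took the same sign in TTF-ieSCs and 7 of 12 in MEF-ieSCs. For Mmp9 the shared sign against MEFs was largely set by the filter. Among the 7 members that were not kept, Adamts19 had 10 features between 2.82 and 5.17, and the von Willebrand factor protease Adamts13 had 2 between 3.47 and 5.10. Adamts20, Mmp20, Mmp21 and Mmp25 were no higher than 4.53 on any array. Mmp1a lay between 4.19 and 6.34.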

How the data were processed

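RNA of 10 samples was measured on single-colour Cy3 Agilent arrays, per the labels. The deposited values were taken as log2 levels from their range (0.288 to 19.02). The submitters' processing notes name limma, and the background correction and log base are not given in the sources used here. Array medians ran from 5.759 to 5.782 and sorted values above the 40th percentile differed by at most 0.0379, so levels had been equalised between arrays. The number of arrays limits the precision.

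Features above the 40th percentile on at least 2 arrays were kept, with the feature of highest mean for each gene. Groups were compared with limma 3.58.1 and statmod 1.5.0 in R 4.3.3 (two-sided moderated test, Benjamini-Hochberg over 16650 genes, threshold 0.05), with the array name as a random block (correlation 0.606). Preparations were compared as means of 5 names without a block. Tables and figures used Python 3.11.15, pandas 2.3.3 and matplotlib 3.10.9, and the fits were tested on simulated data. Promoters came from RefSeq (GRCm38.p6), which held 32 of the 46 genes. The members, the marker and pathway lists and the rule for naming genes were chosen with earlier results of these data known. Named by rule were all Timp genes, the 8 largest called rises and falls without overlap in each group comparison, the 5 largest each way between preparations, members called in opposite directions, and the 3 genes of smallest p of each pathway list. Adamts3, Adamts8, Adamts14, Adamts18, Mmp7, Mmp11, Mmp12, Mmp19 and Mmp28 are named beyond it, chosen after their values were seen. Alternatives changed the filter, feature, block, centring, variance model and arrays left out.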

Additional observations from a re-analysis of the deposited data

Results flagged for a closer look

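Among 78 sets of 4 arrays (39 genes in the ieSCs of each origin), 4 held an array far from the other 3. The cut-off is one that about 1 in 20 sets of 4 independent values would pass. Here each set is 2 preparations with 2 arrays each, so that rate does not apply. Adamts8 was 6.40 on MEF-ieSC array 2b and 6.60 to 6.61 on the others. Adamts9 was 13.30 on TTF-ieSC array 2a and 13.45 to 13.48 on the others. Mmp15 was 7.82 on MEF-ieSC array 1a and 7.40 to 7.41 on the others. Timp1 was 17.92 on MEF-ieSC array 2b and 18.08 to 18.09 on the others.

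Features that were not used in the tests gave 3 high single arrays above both MEF arrays, of 82 sets of 4 looked at. The second feature of Adamts14 was 6.29 on TTF-ieSC array 1a, against 5.92 to 5.96 on the other 3 and at most 6.13 in MEFs. Mmp1a was 6.34 on TTF-ieSC array 2b, against 4.54 to 4.75 and at most 4.62 in MEFs. A feature of Mmp9 was 6.50 on TTF-ieSC array 2b, against 3.92 to 4.02 and at most 5.73 in MEFs. The second feature of Adamts2 was 8.58 on the same array, against 5.69 to 5.84, and not above the MEF maximum of 8.94.

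Adamts4 stood apart because the ieSCs of the 2 origins lay on opposite sides of the MEF level, and the difference between them was itself tested, at -4.81.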

How the results depend on the processing

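Of 1800 values of 77 results on single genes under the alternatives, 1710 kept their direction and side of the threshold, 76 lost the call, 10 gained it and 4 turned sign, and 49 results kept both under every alternative run on them. With the arrays of each name averaged, fewer members and fewer of all genes were called in each comparison of groups. Several named genes kept their differences there but lost the call. Against MEFs these were Mmp8, Mmp1b, Mmp27 and Adamts16 in MEF-ieSCs. In TTF-ieSCs they were Mmp8, Mmp10, Mmp15, Mmp17, Mmp27, Adamts1, Adamts4, Adamts9, Adamts15 and Adamts17. Between the origins they were Mmp10, Mmp23, Adamts10, Adamts15 and Adamts16. That fit has fewer samples, leaves 1 value for MEFs and gave the lowest count of members in each comparison of groups. Calls over all genes moved with the setting too, so the counts below do not describe the members alone. Between preparations of TTF-ieSCs, 24 members stood beside 4773 of all 16650 genes with the other variance model. In MEF-ieSCs, 17 members stood beside 3146 without the MEF arrays. The 4 values that turned sign were of uncalled results: Timp2 in TTF-ieSCs against MEFs without preparation 1 of TTF-ieSCs (-0.24) and on centred and scaled values (-0.0894), and Timp4 in TTF-ieSCs against MEFs without preparation 2 (0.22) and between the origins without preparation 1 (-0.0880). The cause was not tested. Counts of called members ranged from 17 to 30 for MEF-ieSCs against MEFs, 11 to 29 for TTF-ieSCs, 10 to 23 between origins, and 18 to 24 and 17 to 21 between preparations of TTF-ieSCs and MEF-ieSCs. The same preparation number need not mean shared cultures: preparation differences of the origins correlated at 0.273 over 42617 features, with only 2 numbers. With the preparation number as a replicate block the calls were 30, 29 and 23, where 10728, 9824 and 8729 of all 16650 genes were called. The labels give array codes without saying what they mean. By these codes the arrays were split into 2 sets, those marked a and those marked b. With this set as a replicate block, 23 and 21 members were called between preparations, where 4465 and 3871 of all 16650 genes were. In the 3 group comparisons 19, 19 and 16 members were called, where 8203, 7185 and 5646 of all genes were. Genes near the filter level, among them Mmp16 and Mmp9 in ieSCs, have uncertain sizes.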

Other observations

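Markers of mesothelium, the lining of body cavities, which were not part of any comparison above, were summed as well. Of 7 tested, 5 rose and 1 fell in MEF-ieSCs and 6 rose and 0 fell in TTF-ieSCs by limma, with medians of 4.07 and 4.52. Their summed level on the log2 scale was 14.41 to 14.43 in MEFs, 18.88 to 19.37 in MEF-ieSCs and 18.87 to 19.22 in TTF-ieSCs. Wt1 is counted among the genes that rose (5.63 and 5.57), and the ieSCs carry a Wt1 transgene, so its own and the introduced gene cannot be told apart here.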
